A study of Danio rerio with 6 samples.

Results

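The Kruppel-like factor genes klf2a, klf2b, klf6a and klf3 were followed in sorted cells of zebrafish embryos 48 hours after fertilisation. The 4 genes were taken by symbol, by a rule that uses no measured value, and are 4 of 29361 genes listed in the count table. All 4 lay above the filter on low counts. The 3 mutant libraries (mutant 1, 2 and 3) came from embryos carrying the uq4bh mutation of mafba, a gene of the large Maf transcription factors, and 3 libraries (wild-type 1, 2 and 3) came from wildtype embryos. Embryos of both groups carried the kdrl eGFP transgene, in which the promoter of a Vegf receptor gene drives a fluorescent protein in endothelial cells. The labels call the samples purified endothelial cells, while their protocol text also speaks of brains and of a pdgfr beta reporter. Whether the mutants were homozygous, how many embryos were pooled and whether libraries of a group came from separate pools is not stated in the labels, and the p-values cover no more than the spread among these 6 libraries, part or all of which may be technical.

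Kruppel-like factors are DNA-binding proteins that end in a run of C2H2 zinc fingers and bind GC-rich and CACCC elements. In endothelium, KLF2 is known as a gene that blood flow switches on: shear stress acts through a kinase cascade of MEKK3, MEK5 and ERK5 on MEF2 factors at its promoter, and the CCM proteins restrain that cascade. Zebrafish keep a pair of Klf2 genes, klf2a and klf2b, and klf2a is used in zebrafish heart and vessels as a readout of flow. KLF6 is known in mammals as a factor induced by injury in vessels and in other tissues, and KLF3 in the mouse as a repressor that recruits the co-repressor CtBP.

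Reads on genes ranged from 44888870 to 52923490 in mutant libraries and from 43859736 to 49145191 in wild-type libraries. Endothelial markers were detected in each library: kdrl stood at 34.3 to 44.4 CPM in mutant libraries, against 35.2 to 54.8 CPM in wild-type ones, and the VE-cadherin gene cdh5 at 10.3 to 16.7 CPM in mutant and 15.0 to 16.9 CPM in wild-type libraries. CPM here means reads of a gene divided by the TMM-scaled library size in units of 1000000 reads. The 19 listed endothelial markers found in the files summed to 859 to 1318 CPM in mutant and 974 to 1503 CPM in wild-type libraries, with none at 0 reads. Some other cell types had markers at higher summed levels. The 20 epidermis markers summed to 9646 to 14539 CPM in mutant and 8769 to 12110 CPM in wild-type libraries, and the 10 neutrophil markers to 6988 to 17244 CPM in mutant and 7085 to 11479 CPM in wild-type libraries. Erythroid and skeletal muscle markers also summed above the endothelial list in each library, while those of macrophages, neurons, heart, mural cells and mesenchyme, and kidney, gut and liver summed below it. The pericyte receptor gene pdgfrb had 15, 49 and 39 reads in mutant 1, 2 and 3 and 24, 29 and 0 reads in wild-type 1, 2 and 3. Levels of the Klf genes therefore belong to this mixture of cells, and in such bulk samples fewer cells of a type and less RNA per cell cannot be told apart.

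The pair of Klf2 genes stood at a lower mean in mutant than in wild-type libraries, but the groups overlapped and neither difference passed the test. For klf2a the levels were 68.4, 67.1 and 107 CPM in mutant 1, 2 and 3, against 77.0, 110 and 141 CPM in wild-type 1, 2 and 3. Mutant 3 lay above wild-type 1, so the groups overlapped, while mutant 1 and mutant 2 lay below each wild-type library. The means were 80.7 ± 22.4 CPM in mutant and 109 ± 31.9 CPM in wild-type libraries (SD, n = 3 each). This came to a log2 difference of -0.44 ± 0.24 (SE) and a 95% interval of 0.518 to 1.05 times the wild-type level. The adjusted p over all genes was 1.00 (edgeR quasi-likelihood). In this fit, which has no block of replicate numbers, a level under 0.518 times wild-type lies outside the interval and an equal level inside it.

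The paralogue klf2b showed a difference of similar size. It stood at 130, 99.7 and 150 CPM in the mutant libraries, against 129, 192 and 171 CPM in the wild-type libraries. The groups overlapped because wild-type 1 lay below mutant 1 and mutant 3. The means were 127 ± 25.3 CPM in mutant and 164 ± 32.1 CPM in wild-type libraries (SD, n = 3 each). Its log2 difference of -0.38 ± 0.19 (SE) had an interval that ran from 0.580 to 1.02 times the wild-type level (adjusted p = 1.00, edgeR quasi-likelihood). The 2 genes together gave 198, 167 and 257 CPM in the mutant libraries, against 206, 302 and 312 CPM in the wild-type libraries.

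The other 2 genes differed by less. For klf6a the levels were 800, 584 and 770 CPM in the mutant libraries, against 746, 923 and 703 CPM in the wild-type libraries. Mutant 2 held the lowest level and wild-type 2 the highest, and of the other libraries mutant 1 and mutant 3 lay above wild-type 1 and wild-type 3. The log2 difference of klf6a, -0.14 ± 0.17 (SE), had an interval of 0.700 to 1.18 times the wild-type level (adjusted p = 1.00, edgeR quasi-likelihood). Without mutant 2 it was -0.00996 and without wild-type 2 it was -0.0128.

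The repressor gene klf3 was the only one of the 4 with a higher mean in mutant libraries. It stood at 227, 225 and 172 CPM in the mutant libraries, against 157, 215 and 170 CPM in the wild-type libraries. Mutant 1 and mutant 2 lay above each wild-type library, and mutant 3 lay between the wild-type values. Its log2 difference of 0.21 ± 0.17 (SE) had an interval of 0.895 to 1.49 times the wild-type level (adjusted p = 1.00, edgeR quasi-likelihood).

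**Figure D1:**
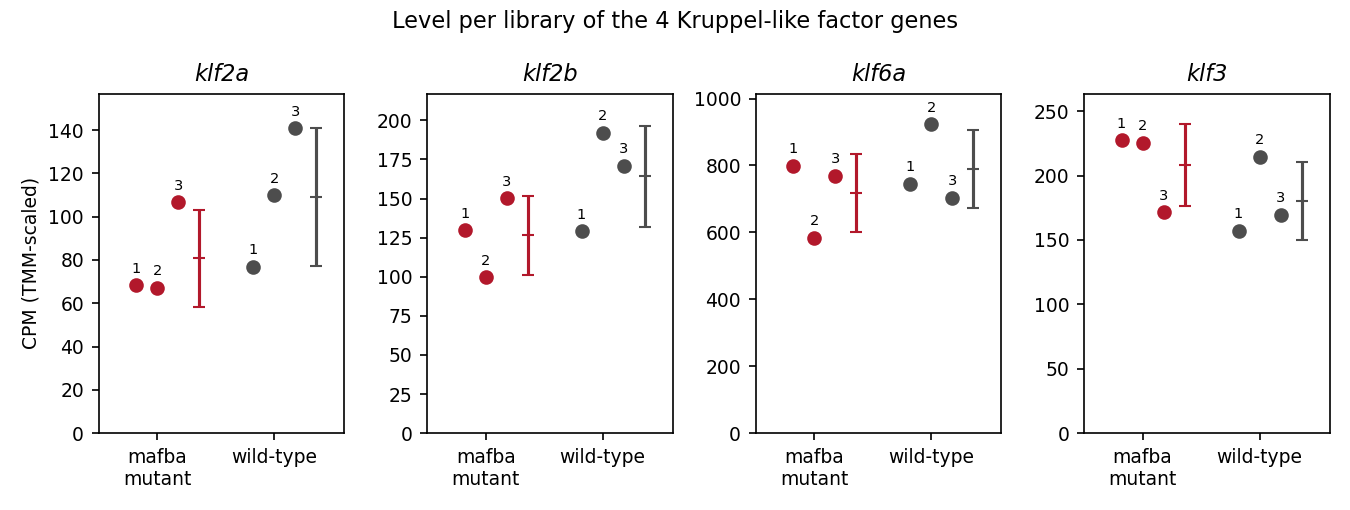
Level in CPM (vertical axes, each from 0) of klf2a, klf2b, klf6a and klf3 in the 3 mafba mutant and 3 wild-type libraries. Points are libraries with their replicate number and the bar beside them is the mean ± SD. In each panel the groups overlap, with klf2a at 67.1 to 107 CPM in mutant and 77.0 to 141 CPM in wild-type libraries.

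None of the 4 genes passed the threshold, and 0% of the 19381 genes tested did (edgeR quasi-likelihood, adjusted p under 0.05). At an unadjusted p under 0.05, in the same fit without a block, the counts were 0 of 4 and 1.57% of all genes tested, and the unadjusted p was 0.0882 for klf2a, 0.0697 for klf2b, 0.434 for klf6a and 0.244 for klf3 in edgeR. The other tools also made 0 calls, with 358 genes under that unadjusted p in DESeq2 and 321 in limma-voom. In 0 of the 4 genes did all mutant libraries lie on the same side of all wild-type libraries. Across all genes tested, 3.38% had each mutant library above each wild-type library and 3.36% had each below.

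The 4 genes differed in how far libraries of 1 genotype spread. Within genotypes, the SD of log2 CPM was 0.41 for klf2a, 0.30 for klf2b, 0.23 for klf6a and 0.23 for klf3. For the 500 genes nearest to klf2a in mean level the median SD was 0.19, and 93.8% of them spread less than klf2a. The same share was 81.6% for klf2b, 58.0% for klf6a and 69.8% for klf3. The wide spread of klf2a was found in both groups, with a coefficient of variation of 27.8% among mutant and 29.2% among wild-type libraries. Such a spread was not particular to klf2a. Among the endothelial markers, egfl7 had 37.8% in mutant and 39.2% in wild-type libraries, while kdrl had 12.8% and 25.7%. Differences in spread between genes were not tested.

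The balance of the paralogues did not differ beyond the spread between libraries. Reads of klf2a made up 34.5% (95% interval 33.5% to 35.5%), 40.2% (39.1% to 41.4%) and 41.5% (40.8% to 42.3%) of the reads of klf2a and klf2b in mutant 1, 2 and 3. In wild-type 1, 2 and 3 the share was 37.3% (36.3% to 38.4%), 36.4% (35.5% to 37.2%) and 45.1% (44.4% to 45.9%). These are exact Clopper-Pearson intervals that treat reads as independent. They cover counting error of reads only, and not error from the amplification of the RNA. In each library klf2b had more reads than klf2a, and mutant 1 and wild-type 3 stood at the ends of the range. The mean share was 38.8% ± 3.74 in mutant and 39.6% ± 4.81 in wild-type libraries (SD, n = 3 each), a difference of -0.861 percentage points. A two-sided exact permutation test gave p = 0.90, where the smallest p that 3 against 3 libraries allow is 0.1. The sign turned without mutant 1 (1.27 percentage points) and without wild-type 3 (1.90 percentage points). Exon lengths of the annotation behind the counts were not used here, so these are shares of reads and not of transcripts, and reads that align to both paralogues would fall among the entries that HTSeq lists as not uniquely aligned (13.6% to 15.0% of each mutant file and 14.1% to 20.3% of each wild-type file).

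**Figure D2:**
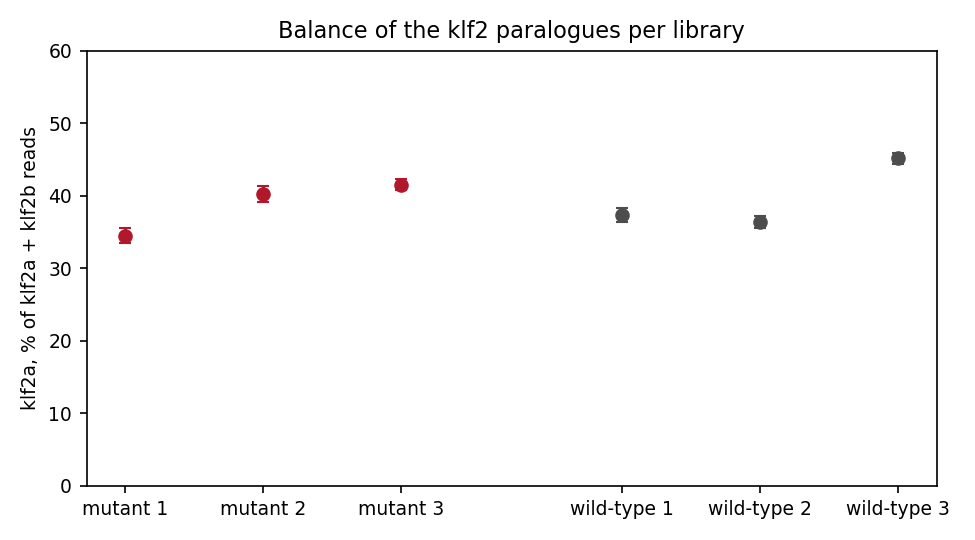
Reads of klf2a as a percent of the reads of klf2a and klf2b (vertical axis from 0) in each mafba mutant and wild-type library, with 95% Clopper-Pearson intervals of counting error. The shares lie between 34.5% and 45.1%, and the 2 groups overlap.

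Among the reads of all 4 genes, klf6a took 59.8% to 65.3% in mutant and 59.4% to 67.2% in wild-type libraries. The share of klf3 was 18.6%, 23.1% and 14.3% in the mutant libraries, against 14.2%, 14.9% and 14.3% in the wild-type libraries. Mutant 1 and mutant 2 held a higher klf3 share than each wild-type library, and mutant 3 did not. For each read of klf2a or klf2b there were 1.15, 1.35 and 0.669 reads of klf3 in the mutant libraries, against 0.763, 0.710 and 0.544 in the wild-type libraries. This ratio sets the gene with a higher mean in mutant libraries over the pair with a lower mean. Its direction therefore follows from the levels above and is no separate result. Summed over the 4 genes the level was 1225, 976 and 1198 CPM in the mutant libraries, against 1109, 1440 and 1185 CPM in the wild-type libraries.

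Across the 6 libraries, klf2a and klf2b were high and low in much the same libraries. Pearson's r of their log2 CPM was 0.84 (exact permutation p = 0.0306) and Spearman's rho 0.89 (exact permutation p = 0.0333). Adjusted over the 6 pairs of genes, p was 0.183 for r and 0.20 for rho (Benjamini-Hochberg), so the relation did not pass. Without mutant 2 and wild-type 3, the libraries farthest from the median of klf2a, r was 0.85. The next highest r, 0.77 for klf2b with klf6a (exact permutation p = 0.0736, adjusted 0.221, rho 0.60, exact permutation p = 0.242, adjusted 0.594), rested on mutant 2 and wild-type 2, without which it was -0.73. For klf3 and klf2a r was -0.46 (exact permutation p = 0.31, adjusted 0.619) and rho -0.54 (exact permutation p = 0.297, adjusted 0.594), with r at -0.10 without mutant 2 and wild-type 3. With 3 libraries in a genotype no correlation was computed within genotypes.

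**Figure D3:**
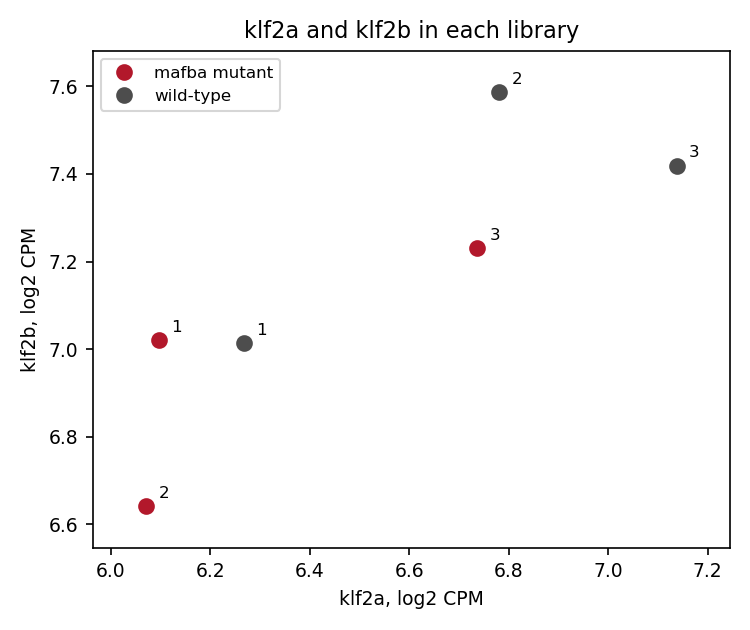
Level of klf2b (vertical axis, log2 CPM) against klf2a (horizontal axis, log2 CPM), 1 point for each of 3 mafba mutant and 3 wild-type libraries, with replicate numbers. Mutant 2 is lowest in both genes, and wild-type 2 and wild-type 3 are the 2 highest for both (r = 0.84 over 6 libraries).

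The Klf2 genes were not higher in the libraries where the score of the endothelial markers was higher. The score of the endothelial list, which is the mean log2 CPM of its 19 genes relative to the mean over libraries, was 0.21, 0.11 and -0.33 in mutant 1, 2 and 3 and 0.37, -0.15 and -0.21 in wild-type 1, 2 and 3. Within each genotype the library with the lowest endothelial score, library 3, had the highest klf2a level. Among mutant libraries cdh5, fli1a, fli1b and esama were lowest in mutant 2, and the other listed genes in mutant 3. Library 3 also had the highest TMM factor of each group, 1.11 in mutant 3 and 1.06 in wild-type 3. Whether a property of library 3 as a whole lies behind the relation was not tested. Pearson's r with this score was -0.80 for klf2a (exact permutation p = 0.0847, adjusted 0.339 over 4 relations; rho -0.60, exact permutation p = 0.242, adjusted 0.483). It was -0.62 for klf2b (exact permutation p = 0.185, adjusted 0.369; rho -0.60, exact permutation p = 0.242, adjusted 0.483). For klf6a r was -0.21 and rho -0.03 (exact permutation p = 0.719, adjusted 0.854, and p = 1.0), and for klf3 r was 0.12 and rho 0.09 (exact permutation p = 0.854, adjusted 0.854, and p = 0.919, adjusted 1.0). Without mutant 3 and wild-type 1, the libraries farthest from the median score, r was -0.97, -0.80, -0.27 and 0.80 for klf2a, klf2b, klf6a and klf3. This set of relations was chosen after the levels were seen, and none passed.

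The genes whose levels followed each Klf gene most closely across the 6 libraries were found among 11745 genes whose log2 CPM averaged 2 or more, as a description. For klf2a these were irg1l (r = 0.992), vim (0.988), which encodes the intermediate filament protein vimentin, and the chemokine receptor gene cxcr3.2 (0.986). The level of irg1l was 50.2, 46.8 and 106 CPM in the mutant libraries, against 57.7, 93.4 and 144 CPM in the wild-type libraries, the same order of libraries as klf2a apart from wild-type 2 and mutant 3, which were exchanged. For klf2b they were ANKRD50_(1_of_2) (0.993), fam65a (0.989) and irg1 (0.989), whose mouse counterpart encodes the enzyme that makes itaconate in activated macrophages. For klf6a they were kif26ba (0.987), nlrc3 (0.986) and bcl2l1 (0.984), a gene of the Bcl-2 family that restrains apoptosis. For klf3 they were si:ch73-266f23.1 (0.986), creb3l2 (0.982) and arf5 (0.981). The number of genes with r over 0.95 was 36 for klf2a, 38 for klf2b, 46 for klf6a and 23 for klf3, and with 6 libraries such values are reached by many genes.

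Most other genes of the Klf family were detected too. Of 26 family names looked up, 20 genes were in the files and all 20 could be tested. None passed (edgeR quasi-likelihood), 5 were fitted higher and 15 lower in mutant libraries, and the median log2 difference was -0.26, against -0.00470 over all genes tested. The 16 genes beyond klf2a, klf2b, klf6a and klf3 were divided into 4 higher and 12 lower. Among those, klf11b stood at 180, 198 and 164 CPM in the mutant libraries, against 193, 175 and 186 CPM in the wild-type libraries (log2 difference -0.03 ± 0.14, SE). Its paralogue klf11a stood at 99.6, 112 and 143 CPM in mutant and 98.9, 147 and 160 CPM in wild-type libraries (-0.19 ± 0.20). The gene listed as zgc:136851, a synonym of klf5l, stood at 113, 80.3 and 75.2 CPM in mutant and 84.5, 77.0 and 76.6 CPM in wild-type libraries (0.18 ± 0.18). For klf7b, whose mammalian counterpart acts in neurons, the levels were 74.2, 39.6 and 83.8 CPM in mutant and 78.2, 81.0 and 89.4 CPM in wild-type libraries (-0.33 ± 0.23). The levels of klf4a, listed now as klf4 and known in mammals for the skin barrier and as a second flow-induced factor of endothelium, were 22.6, 7.45 and 23.6 CPM in mutant and 11.8, 21.7 and 18.4 CPM in wild-type libraries (0.05 ± 0.39). The erythroid factor gene klfd, now klf1, stood at 3.36, 1.19 and 4.86 CPM in mutant and 5.70, 1.97 and 5.28 CPM in wild-type libraries (-0.46 ± 0.58), and klf4b, now klf17, at 12.2, 16.2 and 13.0 CPM in mutant and 14.8, 17.9 and 13.7 CPM in wild-type libraries (-0.16 ± 0.25). The log2 differences of the remaining klf5a, klf5b, klf6b, klf7a, klf9, klf12a, klf12b, klf13 and klf15 ran from -1.61 ± 1.62 for klf5b to 0.17 ± 0.83 for klf7a.

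**Figure D4:**
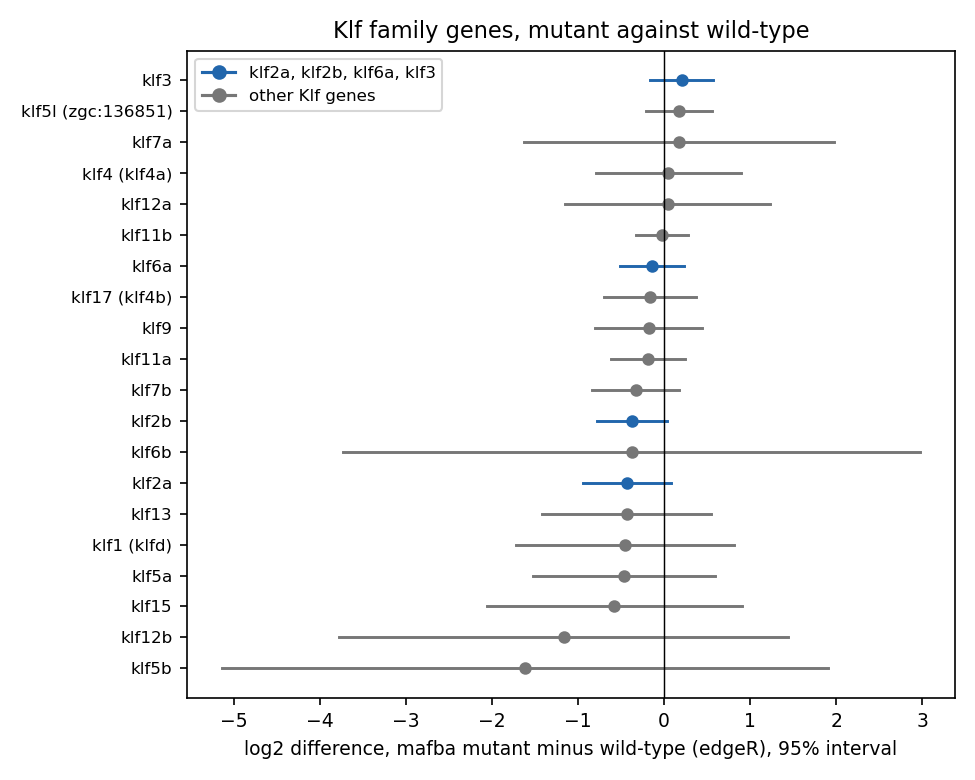
Log2 difference, mafba mutant minus wild-type (horizontal axis), with its 95% interval from edgeR for each of 20 Klf family genes (rows, highest difference at the top, current symbol first and the symbol in the files in brackets). Blue marks klf2a, klf2b, klf6a and klf3. Each of the 20 intervals includes 0, and 15 of the 20 points lie below it.

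Many of the lowest values were those of mutant 2. This library held the lowest level in 13 of the 20 Klf genes (65.0%), against 20.8% of all genes tested, and klf5b, klf6b and klf12b had 0 reads in it and reads in each of the other 5 libraries. Of the 8 Klf genes with a log2 of the mean CPM of at least 5, 4 were lowest in mutant 2 (50.0%), against 18.1% of the 4239 genes at that level. Without mutant 2 the median log2 difference of the 20 genes was -0.08, with 15 fitted lower, a set that then held klf12a and no longer klf6b. The neutrophil markers summed to 17244 CPM in mutant 2, against 6988 and 8712 CPM in mutant 1 and 3 and 7085 to 11479 CPM in wild-type libraries. The neutrophil lysozyme gene lyz stood at 10489 CPM in mutant 2, against 4490 and 4746 CPM in mutant 1 and 3 and 4076 to 6215 CPM in wild-type libraries. Of the neutrophil list, mmp9 was highest in wild-type 2 and il6r in mutant 3. Erythroid markers also summed highest in mutant 2, at 4006 CPM, against 1567 and 2613 CPM in mutant 1 and 3 and 2341 to 3183 CPM in wild-type libraries. The globin gene hbae3 gave 2232 CPM of that sum in mutant 2. Of the erythroid list, gata1a, slc4a1a and sptb were highest in wild-type 3, and hbbe2 and hbz in wild-type 2. The genes epb41b, cahz and blvrb were highest in mutant 3, and sptb was lowest in mutant 2. The part of either cell type in the Klf values was not tested.

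Of 27 genes listed for flow sensing and for the kinase cascade that leads to Klf2, 20 could be tested. Whether each of them, s1pr1 included, acts upstream of Klf2 or responds to it was not tested. None passed (edgeR quasi-likelihood), 8 were fitted higher and 12 lower, and the median log2 difference was -0.05. Each mutant library lay below each wild-type library in s1pr1 and in pkd2, or 2 of 20 genes against the 3.36% above. For pkd2 the levels were low, and mutant 1 and wild-type 1 nearly met. It stood at 2.74, 2.47 and 2.72 CPM in mutant and 2.76, 4.10 and 3.76 CPM in wild-type libraries (-0.42 ± 0.46, unadjusted p = 0.378, edgeR). At an unadjusted p under 0.05 there was 1 gene of 20, against 1.57% of all genes tested. This was s1pr1, which encodes a sphingosine-1-phosphate receptor of endothelium. It stood at 51.0, 42.4 and 43.3 CPM in the mutant libraries, against 62.1, 60.6 and 56.8 CPM in the wild-type libraries. Its log2 difference was -0.39 ± 0.16 (SE, unadjusted p = 0.0304, adjusted p = 1.00, edgeR). With a library left out, the unadjusted p ranged from 0.0247 to 0.0955 in edgeR and lay above 0.05 in 4 of 6 fits. The calcium channel gene trpv4 stood at 17.9, 11.8 and 7.85 CPM in mutant and 7.87, 8.18 and 8.46 CPM in wild-type libraries (0.61 ± 0.33). Mutant 1 and mutant 2 lay above each wild-type library. The log2 difference of trpv4 was 0.26 without mutant 1 and 0.65 without mutant 2. The gene of the mechanically gated channel piezo1 stood at 15.8, 18.6 and 19.6 CPM in mutant and 18.7, 22.7 and 22.8 CPM in wild-type libraries (-0.25 ± 0.22). The genes of the kinases and of the CCM complex lay near 0: the log2 difference was 0.15 ± 0.19 for map3k3, -0.12 ± 0.29 for map2k5, 0.06 ± 0.27 for mapk7, -0.11 ± 0.22 for krit1 and -0.01 ± 0.29 for ccm2.

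Genes listed as candidates for a response to Klf2 or to flow were also divided. Whether each of them, nos1 and nos2b included, responds to either was not tested. Of 34 listed, 32 were in the files and 30 could be tested, and none passed (edgeR quasi-likelihood). The fitted log2 difference was above 0 in 15 and below 0 in 15, with a median of 0.01. The list was not sorted by the direction of response and holds edn1, a gene that KLF2 represses. The split and the median therefore do not measure a response to Klf2. The groups did not overlap in nos1 and nos2b, both above 0 and both under 2 CPM in each library, or 2 of 30 genes against the 3.38% above. The 3 with the smallest p were ptgdsb, fn1b and nrg1. The prostaglandin D synthase gene ptgdsb stood at 8.14, 17.8 and 11.3 CPM in the mutant libraries, against 12.2, 34.3 and 20.2 CPM in the wild-type libraries. Its log2 difference was -0.84 ± 0.38 (SE, unadjusted p = 0.0456, adjusted p = 1.00, edgeR), mutant 2 lay above wild-type 1, and reads shared with the neighbouring copy of this gene would make its value uncertain. Without wild-type 2 it was -0.39 (unadjusted p = 0.318, edgeR). The fibronectin gene fn1b, which lies downstream of klf2a in zebrafish heart valve formation, stood at 31.9, 16.0 and 22.9 CPM in mutant and 30.3, 49.9 and 21.9 CPM in wild-type libraries (-0.53 ± 0.31, and -0.14 without wild-type 2). The neuregulin gene nrg1 stood at 22.3, 12.8 and 26.2 CPM in mutant and 28.8, 27.5 and 25.2 CPM in wild-type libraries (-0.41 ± 0.26). The endothelin gene edn1, which KLF2 represses in mammals, stood at 13.1, 4.49 and 4.79 CPM in mutant and 13.9, 12.1 and 4.51 CPM in wild-type libraries (-0.45 ± 0.49). For notch1b and wnt9b, of the heart valve programme, the log2 differences were -0.02 ± 0.35 and -0.04 ± 0.50.

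In the gene table of the assembly GRCz12tu, which is not the build of the counts, no annotated gene overlapped klf2a, klf2b, klf6a or klf3. In that table klf2a lies beside eps15l1a and klf2b beside eps15l1b, a pair of paralogous neighbours. The level of eps15l1a was 23.5, 34.3 and 31.1 CPM in the mutant libraries, against 17.5, 21.4 and 32.5 CPM in the wild-type libraries. Its log2 difference of 0.32 ± 0.26 (SE) was of opposite sign to that of klf2a, and it did not pass (adjusted p = 1.00, edgeR).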

How the data were processed

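Each library has a deposited file of raw read counts by gene symbol. Per the submitters' processing notes, bcl2fastq, STAR and HTSeq were used, with danRer7 and Zv9 as builds. Per the labels' protocols, the RNA had been amplified. No version, annotation or strand setting is given in the sources used here. Reads of antisense or overlapping genes therefore cannot be told apart. The summary rows of HTSeq (22.1% to 28.1% of each file) were left out. They hold entries not assigned to a gene, most of them not uniquely aligned (13.6% to 20.3% of each file).

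Fits were made in R 4.3.3 by edgeR 4.0.16 (filterByExpr defaults, TMM, robust quasi-likelihood fit over 19381 genes, Benjamini-Hochberg adjustment, threshold 0.05, no block), with DESeq2 1.42.0 and limma-voom (limma 3.58.1) as alternatives. SE and 95% intervals are of the log2 difference, mutant minus wild-type. For edgeR the SE was worked back as the absolute log2 difference over the square root of the quasi-likelihood F value. The 95% intervals were built from that SE, so both are approximate. Log2 CPM used a prior count of 2. Fits were also run on simulated data, with fold changes larger than those of klf2a, klf2b, klf6a and klf3, and no result here rests on that run. Single values were compared by exact permutation tests. Figures come from matplotlib 3.10.9 in Python 3.11.15.

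The rule for the 4 genes uses symbols alone, but the genes, lists, tests and alternatives were chosen with earlier results of these data known. Named were the 4 genes, the tested Klf family, the 3 genes with the smallest p in each of the 2 flow lists, and the 3 genes that followed each Klf gene most closely. Values of map3k3, map2k5, mapk7, krit1, ccm2, pkd2, nos1, nos2b, pdgfrb, edn1, notch1b, wnt9b and eps15l1a are given for their roles, outside that rule, with their values known. The markers kdrl, cdh5, lyz and hbae3 were named to check the label. The markers mmp9, il6r, gata1a, slc4a1a, sptb, hbbe2, hbz, epb41b, cahz and blvrb were also named with their values known. So were fli1a, fli1b, esama and egfl7. Symbols were also matched through synonyms in a gene table of the assembly GRCz12tu. Coordinates of that table served only to find neighbouring and overlapping genes, and sequences were not used here.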

Additional observations from a re-analysis of the deposited data

How the results depend on the processing

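At an adjusted p under 0.05, the number of changed genes was 0 under each alternative scaling, filter, test and left-out library. At a threshold of 0.1 it was 0 in the main edgeR fit. That threshold was not applied to the other fits, and the lowest adjusted p in DESeq2 was 0.0829. The signs of klf2a, klf2b, klf6a and klf3 held in each of 16 alternatives, and none passed. Among these, the refit on the series-wide counts, which are the same counts, and the fit without robust estimation gave the log2 differences of the main fit. Their kept signs therefore add nothing. With each library left out in turn, klf2a ranged from -0.69 (without mutant 3) to -0.21 (without wild-type 3), klf2b from -0.52 to -0.23, klf6a from -0.22 to -0.00996 and klf3 from 0.12 to 0.35. The klf2a share ranged from -2.48 to 1.90 percentage points, and the log2 difference of the summed level from -0.21 to -0.0239, around -0.13. Of 347 alternative values for 22 other named genes, 332 kept their sign and 15 in 6 genes did not. Those values include the refit on the series-wide counts and the fit without robust estimation, which again repeated the main log2 differences. The log2 difference of klf4a was -0.0311 in limma-voom, -0.0501 with the replicate block and -0.20 to 0.42 with a library left out. For klf12a these were -0.19, -0.19 and -0.74 to 0.42. Left-out libraries gave -0.0287 to 0.29 for zgc:136851, -0.85 to 0.20 for klf6b, -0.28 to 0.86 for klf7a and -0.10 to 0.0358 for klf11b. The cause was not tested. A replicate block by library number gave 0 calls in edgeR (lowest adjusted p 0.0535), and klf2a in it was -0.43 ± 0.15 (SE, unadjusted p = 0.0130). In that edgeR fit 523 of the 19381 genes tested lay under an unadjusted p of 0.05, against 305 without the block. With the block, the unadjusted p in edgeR was 0.0519 for klf2b, 0.389 for klf6a and 0.162 for klf3. No label says what same-numbered libraries share. Deviations of same-numbered libraries correlated at 0.0598, 0.0211 and 0.14 across all genes tested, and mutant 2 and wild-type 1 correlated better with another number than their own. Across the 4185 genes with log2 CPM averaging 5 or more, as the 4 genes do, the values were 0.35, 0.11 and 0.54, with mutant 2 as the exception, so this check was not settled. Under the strict filter, 5 Klf genes had no value. Counts of klf2a, at 2828 reads or more in each library, leave the spread between libraries as the larger source of error.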
